A study of Homo sapiens with 3 samples.

Results

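The origin firing and replisome genes are a set of 38 named genes, out of 19974 protein-coding genes, whose products turn a licensed replication origin into a pair of working forks. They were chosen by name, and although the rule uses no measured value, the set was proposed with earlier results of these data known. Each was followed through its gene body in the RefSeq annotation of GRCh38.p14. The measurement is Hi-C, which counts how often distant stretches of chromatin are ligated together in fixed nuclei. There were 3 libraries of HCT116, a human colorectal carcinoma line, with 1 library in each group, and every group carried the p53-/- background. One group was the parental line, labelled wild-type. One was the ORC2 deletion, a single clone (ORC2B2, labelled ORC2-/-) made with CRISPR/Cas9. One was the ORC2 rescue, in which ORC2 was supplied from the pLHCX vector and cells were again selected as a clone. ORC2 belongs to the origin recognition complex, which loads the replicative helicase.

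At a licensed origin the MCM helicase is loaded around DNA but is inactive. The kinase CDC7 with its partner DBF4, and a group of firing factors that includes TICRR, MTBP, TOPBP1, RECQL4 and DONSON, bring CDC45 and the GINS complex to MCM to form the active helicase. Polymerase alpha with primase then starts each strand, polymerase epsilon extends the leading strand, polymerase delta with the sliding clamp PCNA extends the lagging strand, and FEN1 and LIG1 join the lagging-strand fragments. Proliferating cells depend on this machinery, and many of the genes are known targets of E2F transcription factors.

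The values come from the authors' deposited list of loops, in which each row gives both ends of a loop and the authors' word for its class. The authors named it a list of changed loops. It is not a list of all loops, and a gene without a listed end may still have loops that are not in it. The authors' words conserved_gain, conserved_lost and not_conserved are called gained, lost and not conserved here. What conserved means is not stated in the sources used here. Whether a loop classed not conserved was itself a gain or a loss cannot be told from its word. Where a gene is said below to have no gained or lost loop, it had none of those classes. The sources used here do not say which libraries a gain or a loss compares, so neither class is given a direction with respect to ORC2, and not conserved is not read as unchanged. A loop was counted at a gene when one of its ends, taken as the 5 kb stretch inside its listed position, overlapped the gene body. The gene table gives bodies without exons, so whether an end lay in an exon, an intron or a UTR was not determined. The list holds no contact counts, so depth is unknown and no spread between libraries could be computed. With 1 library per group no test between conditions was possible. Intervals are 95% Wilson intervals. They cover counting error only and treat neighbouring loops as independent, which they are not, so they are too narrow. Compartment scores were not used here, because their columns carry names that match no library.

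The promoter is shown first for the genes in which an E2F word lay wholly before the start site, because these words occur in a larger share of these promoters than of all promoters and were not used to choose the genes. The words searched were TTTCCCGC, TTTCGCGC, TTTGCCGC and TTTGGCGC on both strands, in the 250 bases before and 50 after each start site in RefSeq (GRCh38.p14). Of the 38 genes, 31 had a promoter in the table. At least 1 word occurred in 12 of the 31 (38.7%), against 703 of 15843 protein-coding promoters (4.44%). Windows of 30 bases are given in the direction of transcription, 5′ to 3′, with the word or its reverse complement in capitals.
GINS2, chr16:85688967-85688996, minus strand: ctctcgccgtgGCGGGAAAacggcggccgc
POLA2, chr11:65261898-65261927, plus strand: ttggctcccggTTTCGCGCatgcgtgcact
POLE, chr12:132687343-132687372, minus strand: ctgggtgggagcGCGCCAAAtttctcccct
POLE4, chr2:74958601-74958630, plus strand: ctccagcccgcGCGGGAAAgggcctgcgcc
PCNA, chr20:5126663-5126692, minus strand: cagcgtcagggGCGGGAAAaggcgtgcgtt
RFC3, chr13:33818083-33818112, plus strand: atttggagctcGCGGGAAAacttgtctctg
LIG1, chr19:48170440-48170469, minus strand: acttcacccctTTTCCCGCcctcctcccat

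In the other 5 promoters with a word, those of GINS1, GINS3, TOPBP1, CLSPN and POLE2, the word lay across or after the start site. The shorter word CCAAT, searched in the same way, occurred in 16 of 31 (51.6%) against 36.4% of all promoters. E2F words were found at 7 of 17 promoters of genes with a listed loop end and at 5 of 14 without one. A match is a run of letters and does not show that a factor binds there.

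Listed loops ended on the bodies of 21 of the 38 genes (55.3%, 39.7 to 69.9%). The same was true of 49.6% of all protein-coding genes, a share inside that interval. These 21 genes had 668 listed loops, and no loop counted at more than 1 of them, so no listed loop joined one of these genes to another. The number per gene ran from 1 at POLD1 to 155 at POLE, with a median of 18, against a median of 15 over the 9909 protein-coding genes with any listed end. POLE, RECQL4, CDC7, CLSPN and RFC3 together held 407 of the loops (60.9%). The median gene body was 33.7 kb in the 21 genes with a listed loop and 33.1 kb in the other 17.

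Gained loops reached 4 of the 21 genes (19.0%, 7.67 to 40.0%) and lost loops reached 1 (4.76%, 0.846 to 22.7%). Of all genes with a listed end, 12.7% had a gained loop and 1.85% a lost one, and both shares lay inside the intervals of the set. Counted by loop, 25 of 668 were gained (3.74%, 2.55 to 5.47%) against 1.96% of all listed loops, and 3 were lost (0.449%, 0.153 to 1.31%) against 0.196%. The gained count rests on MTBP, which supplied 18 of the 25. Without MTBP, 7 of 622 loops were gained (1.13%, 0.546 to 2.31%), an interval that holds the genome-wide share. Neighbouring loops of a class, joined where both ends lay within 10 kb of each other, made 7 gained regions and 1 lost region out of 46.

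**Figure D1:**
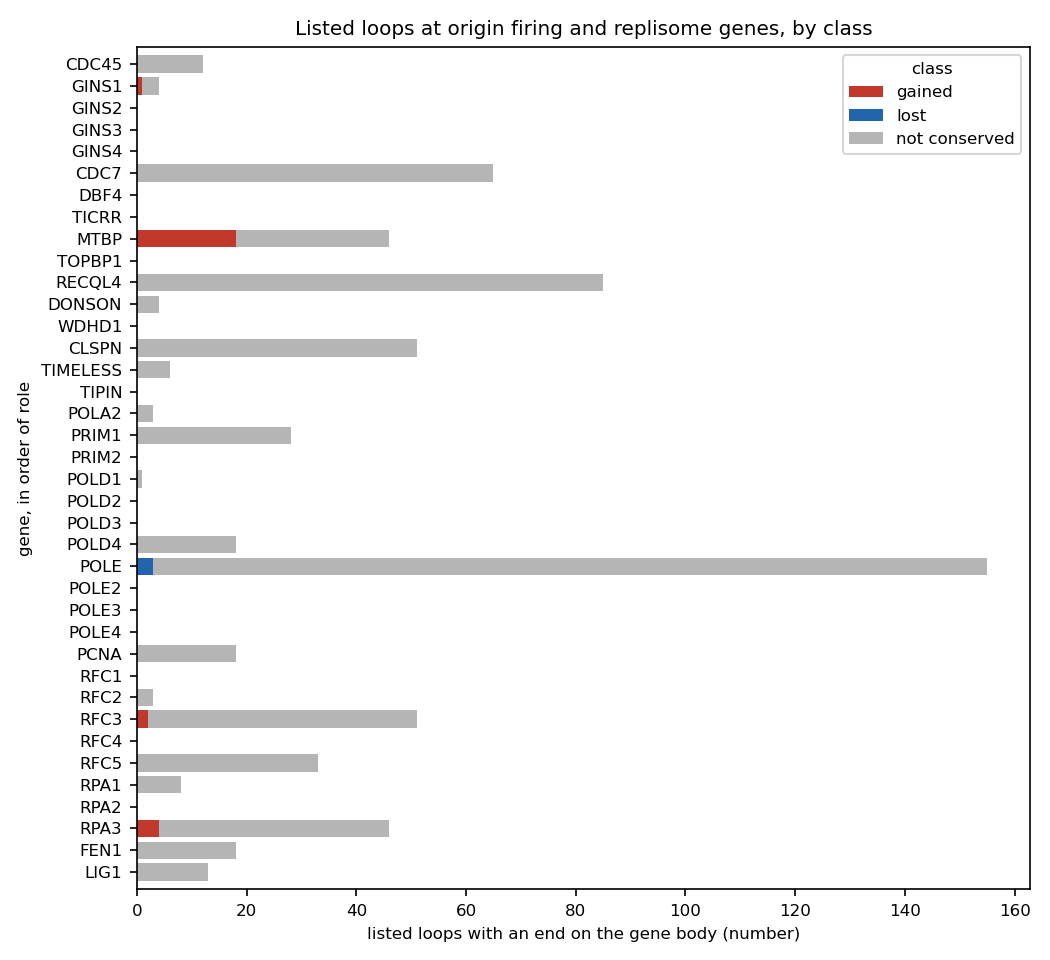
Number of listed loops with an end on each of the 38 gene bodies, in order of role, coloured by the authors' class. Gained loops are seen at MTBP (18), RPA3 (4), RFC3 (2) and GINS1 (1), lost loops at POLE (3), and 17 genes have no listed loop of any class.

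Among the 12 helicase activation and firing factors, 6 had listed loops and 2 had gained ones. MTBP encodes the partner of TICRR in origin firing (chromosome 8, 120445419 to 120523636). It had 46 listed loops, of which 18 were gained (39.1%) and 28 were not conserved. The gained loops were 422 to 509 kb long and all ran to the right of the gene, from left ends within or just before the body to right ends between 120936917 and 120955273. No protein-coding gene overlapped those right ends. They formed 3 groups. The first held 9 loops of 485.5 to 509 kb, the second 3 loops of 453.4 to 458.4 kb, and the third 6 loops of 421.7 to 435.9 kb.

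At MTBP the class of a loop went with the position of its ends. Right ends at 120951058 and 120955273 held 5 loops, all gained. Right ends at 120927972 and 120931927 held 10 loops, all not conserved. Between these, 4 of 11 loops were gained at 120936917, 6 of 12 at 120941671 and 3 of 5 at 120946600. On the gene's side, the 9 loops with left ends from 120483269 onward were all gained, whereas the 6 with left ends at 120465858 and 120470000 were all not conserved. The 3 loops that ran leftward from MTBP, 321.9 to 331.2 kb long, were not conserved, and 2 of them had the far end at COL14A1, a collagen gene.

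Some loops of MTBP also belong to its neighbour. MRPL13, a mitochondrial ribosomal protein gene, overlapped the same end in 8 of the 46 loops, 3 of them gained. A further 3 gained loops, of 503 to 508 kb, started in MRPL13 and passed over the whole of MTBP to right ends at 120941671 and 120946600. On chromosome 8, 2.44% of listed loops were gained, and among the 3405 other loops there of the same length range as those of MTBP, 2.56% were. Of the 6114 protein-coding genes with at least 10 listed loops, 60 had a gained share above that of MTBP and 83.5% had no gained loop at all. Among the 14 genes of the set with at least 10 listed loops, 11 had none (78.6%).

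**Figure D2:**
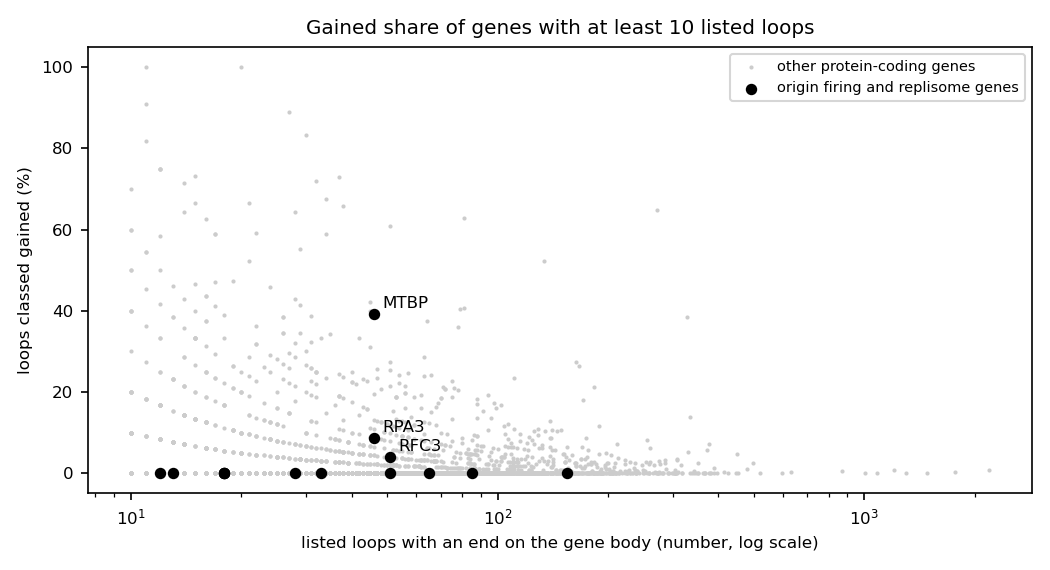
Share of listed loops classed gained (%) against the number of listed loops (log scale), for each protein-coding gene with at least 10. The 14 origin firing and replisome genes are black, and MTBP lies at 39.1%, RPA3 at 8.70%, RFC3 at 3.92% and the other 11 at 0.

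GINS1, a subunit of the GINS part of the helicase, had 4 listed loops (chromosome 20, 25407673 to 25448563), and all 4 shared the right end at 25411576. That end held the start site of GINS1, whose promoter carries an E2F word in reverse complement (GCGCCAAA) just after the start. The single gained loop was 422 kb long, with its far end at APMAP, a membrane protein gene. The 3 loops that were not conserved were 114.5 to 123.7 kb long, and all 3 reached PYGB, the brain form of glycogen phosphorylase. The gained loop was the longest of the 4, and a share of 1 in 4 has an interval of 4.56 to 69.9%. The other GINS genes, GINS2, GINS3 and GINS4, had no listed end.

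The remaining firing genes with listed loops had no gained or lost ones. CDC7, the kinase that triggers firing, had 65 loops of 355.6 to 444.3 kb (chromosome 1, 91500851 to 91525764), all of them running rightward in 1 joined region, and 17 ended at TGFBR3, a TGF-beta co-receptor gene. Finding 0 gained among 65 allows a share of up to 5.58%, above the genome-wide share. RECQL4, a helicase of the RecQ family, had 85 loops of 7.30 to 307 kb in 5 regions (chromosome 8, 144511288 to 144517833), and 79 had a protein-coding gene at the far end. CPSF1, a pre-mRNA cleavage factor gene, was the most frequent with 15, and TONSL, a gene of replication fork repair, had 9. The RECQL4 body is short, and the same ends also overlapped LRRC14 in 29 loops, SLC33A2 in 26 and GPT in 22.

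CDC45, the helicase subunit that joins MCM with GINS, had 12 loops of 109.8 to 132.7 kb (chromosome 22, 19479466 to 19520612), none of which had a protein-coding gene at the far end. DONSON, needed for helicase assembly, had 4 loops of 308.7 to 317.2 kb, all reaching ITSN1. Finding 0 gained of 12 or of 4 allows shares of up to 24.25% and 48.99%, so a gain of the genome-wide size was not detectable at either gene. DBF4, TICRR and TOPBP1 had no listed end. The nearest end lay 71.0 kb from DBF4, 76.6 kb from TICRR and 7.16 kb from TOPBP1.

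Among the 4 genes of fork scaffold and protection, 2 had listed loops and none was gained or lost. CLSPN, encoding the checkpoint mediator claspin, had 51 loops of 144 to 212.6 kb (chromosome 1, 35720213 to 35769978), all running leftward in 1 region. Of these, 26 reached TFAP2E, a transcription factor gene, and 25 reached NCDN. TIMELESS, of the fork protection complex, had 6 loops of 52.0 to 130.8 kb. It was also spanned by 45 listed loops, of which 5 were gained, with left ends at RNF41, a ubiquitin ligase gene, and lengths of 254.2 to 268.3 kb. Its partner TIPIN had no listed end within the gene, and the nearest lay 2.02 kb away. WDHD1, which tethers polymerase alpha to the helicase, had none either.

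Among the polymerase and primase genes, POLE had lost loops and none had gained ones. POLE, the catalytic subunit of polymerase epsilon (chromosome 12, 132623762 to 132687342), had 3 lost loops of 155 (1.94%, 0.660 to 5.54%). The 3 were 235.3, 239.4 and 244.4 kb long and had the same right end, at 132652426 inside POLE. Their left ends were neighbours, from 132408013 to 132417174, with no protein-coding gene. Of the 16 listed loops of POLE with that right end, the other 13 were not conserved. Among 8843 other loops of chromosome 12 in the length range of POLE, 0.0565% were lost. Over the whole list, 0.249% of loops of 100 to 250 kb were lost, the range that holds these 3. The 3 lost loops made 1 joined region, so they are not independent of each other.

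The loops of POLE fell into a short and a long set. In 56 loops both ends overlapped POLE itself. A region of 70 loops held lengths of 9.21 to 43.3 kb, and a region of 79 held 183.5 to 268.5 kb. The lost loops lay among the long set. No loop end held the start site of POLE. POLE2, POLE3 and POLE4, the accessory subunits, had no listed end, although the nearest one lay 5.77 kb from POLE3.

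PRIM1, the catalytic primase subunit, had 28 loops of 227.8 to 282.5 kb (chromosome 12, 56731580 to 56752323), 8 of them reaching TAC3, a tachykinin gene. POLA2, the second subunit of polymerase alpha, had 3 loops of 32.3 to 68.8 kb, 2 of which ended at DPF2, a chromatin remodeller gene. Neither had a gained or lost loop. PRIM2, the large primase subunit, had the most distant nearest end of the 38 genes, at 606 kb.

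For polymerase delta, POLD4 had 18 loops of 29.2 to 172.6 kb and the catalytic subunit POLD1 had 1, of 69.9 kb, reaching MYBPC2. All 18 loops of POLD4 (chromosome 11, 67350765 to 67353596) shared the left end that begins at 67350536, and this end covers the whole of the short gene, start site included. The listed position itself lies 229 bases outside the body. POLD2 and POLD3 had no listed end. POLD1 was spanned by 1 gained loop, of 418.9 kb, starting in NAPSA.

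Among the 6 clamp and clamp loader genes, 4 had listed loops. RFC3, a small subunit of the clamp loader RFC (chromosome 13, 33818149 to 33977377), had 2 gained loops of 51 (3.92%, 1.08 to 13.2%). They were 1226 and 1231 kb long and shared a right end at 35158076 in NBEA, a vesicle traffic gene. A further 6 loops of 1221 to 1241 kb joined the same places and were not conserved. The remaining 43 loops of RFC3 were 122.2 to 170.8 kb long, and none was gained. On chromosome 13, 8.87% of all listed loops were gained, and 2.69% of the 3491 others in the length range of RFC3. That range, 122.2 to 1241 kb, includes lengths between 170.8 and 1221 kb at which RFC3 had no loop. Over the whole list, 11.0% of loops above 1000 kb were gained, and both gained loops of RFC3 were of that length.

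PCNA, the sliding clamp (chromosome 20, 5114953 to 5126622), had 18 loops. RFC5, another small RFC subunit (chromosome 12, 118016703 to 118041448), had 33. Of the PCNA loops, 15 were 60.1 to 82.7 kb long and 14 ended at CDS2, which lies beside PCNA and makes a phospholipid precursor. CDS2 also overlapped the end at PCNA in 9 of the 18 loops, and TMEM230 in 5, so these loops cannot be assigned to PCNA alone. The 15 ran rightward and the other 3, of 358.8 to 377.1 kb, ran leftward. The start site of PCNA lay in 9 of the 18 ends. All 33 loops of RFC5 reached KSR2, a scaffold gene of the MAP kinase pathway, at 123.7 to 175.5 kb. None of them was gained, and 0 of 33 allows up to 10.43%. WSB2 overlapped the same end as RFC5 in 14 of the 33 loops. RFC2 had 3 loops, each to CLIP2, and was spanned by 2 gained loops from ELN, the elastin gene, to CLIP2. RFC1 and RFC4 had no listed end.

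RPA3, the small subunit of the single-strand binding protein RPA (chromosome 7, 7636518 to 7718607), had 4 gained loops of 46 (8.70%, 3.43 to 20.3%). All 46 loops ran rightward to ICA1, an islet autoantigen gene, over 507.1 to 590.4 kb. The gained loops formed 2 pairs. One pair started at 7647133 and was 580.7 and 585.6 kb long, and the other started at 7670538 and was 507.1 and 512 kb long, holding the shortest loop of the gene. The body of RPA3 overlaps that of UMAD1, which lay at the same end in 44 of the 46 loops, so these loops cannot be assigned to one of the 2 genes. Of 655 other loops of the same lengths on chromosome 7, 4.28% were gained. RPA1, the large subunit, had 8 loops of 134.2 to 348.5 kb, all classed not conserved. RPA2 had no listed end, and 2 gained loops of 138.5 and 143.5 kb spanned it.

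**Figure D3:**
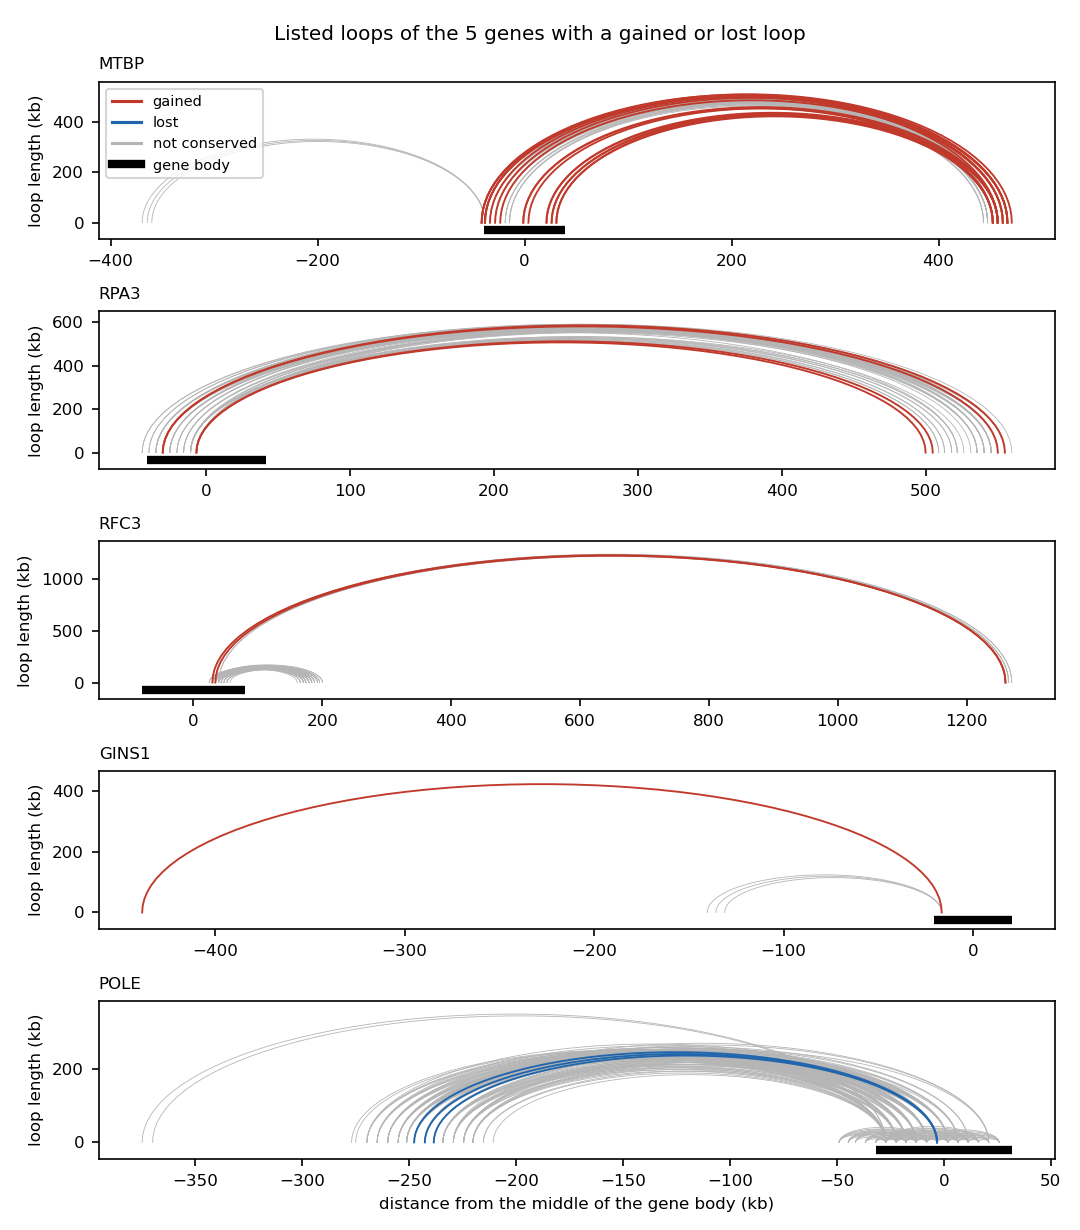
Every listed loop of the 5 genes with a gained or lost loop, drawn as an arc between its listed ends against distance from the middle of the gene body (kb), with arc height equal to loop length (kb) and the gene body as a black bar. The 18 gained loops of MTBP share a narrow right-hand zone, which overlaps that of 25 loops not conserved. At RFC3 the 2 gained loops and 6 not conserved ones are far longer than the 43 loops beneath them. The 3 lost loops of POLE share 1 right end, which 13 not conserved loops also have.

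The genes of lagging-strand maturation had no gained or lost loop. FEN1, the flap nuclease, had 18 loops of 289.1 to 331.3 kb (chromosome 11, 61792911 to 61797238) with no protein-coding gene at the far end. Its body lies next to FADS1 and TMEM258, which overlapped the same end in 8 and 10 loops. LIG1, the ligase that seals the fragments, had 13 loops of 158.3 to 206.5 kb (chromosome 19, 48115445 to 48170344), of which 4 reached BSPH1.

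All 25 gained loops of the set were at least 421.7 kb long. Their median was 499 kb and the longest was 1231 kb, and the 640 loops that were not conserved had a median of 179 kb. Over the whole list the gained median was 300 kb, so the set's gained loops lay at the long end, but 18 of them are neighbours at 1 gene. The 668 loops of the set had a median of 189 kb (171 to 207 kb, an order-statistic interval), against 234 kb for the whole list. This interval also treats neighbouring loops as independent and is too narrow. Counted by joined region, the median of the set was 226.1 kb, outside that interval. Leaving out POLE, the gene with most listed loops, it was 185.4 kb by loop. No median by joined region was computed for the whole list, so whether the set is shorter by region is not known. Of the set's loops up to 250 kb, 0 of 433 were gained, against 1.54% of all 150033 listed loops of those lengths. From 250 to 500 kb 14 of 176 were gained, from 500 to 1000 kb 9 of 51, and above 1000 kb 2 of 8, against 1.87%, 3.57% and 11.0% of all listed loops in those ranges. The gained loops of these ranges came from MTBP and GINS1, from MTBP and RPA3, and from RFC3. Neighbouring loops are not independent, also among the 433, so these counts do not show a length trend of the set. Given the lengths of the set's loops, the shares of the whole list would give 12.8 gained loops in place of 25. Without MTBP they would give 11.9 in place of 7.

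**Figure D4:**
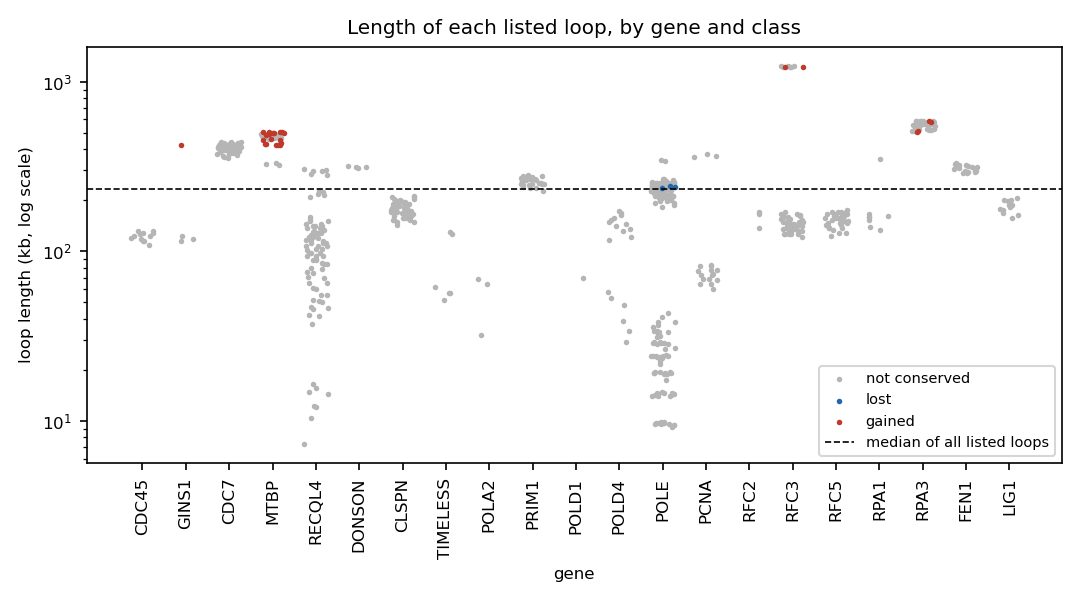
Length of each of the 668 loops (kb, log scale) by gene, coloured by class, with the median of all listed loops (234 kb) as a dashed line. Gained loops, at 4 genes, all lie above the line, and the 3 lost loops of POLE lie just above it.

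The share of start sites at loop ends was also counted. Of 17 genes with both a listed loop and a known start site, 9 had the start site inside a listed end (52.9%, 31.0 to 73.8%), against 59.0% of 7861 protein-coding genes. These were GINS1, CDC7, CLSPN, TIMELESS, PRIM1, POLD4, PCNA, RFC5 and FEN1. Of the genes with a gained or lost loop and a known start site, GINS1 had it in an end, and RFC3 and POLE did not. Start sites of MTBP and RPA3 were not used here.

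Of the 17 genes without a listed end, 4 lay inside listed loops, namely GINS3 (24 loops), DBF4 (27), POLD2 (2) and RPA2 (11). The other 13 had no listed end and lay within no listed loop. Summed over all 38 genes, 354 spanning loops were counted, with 13 gained and 0 lost, beside 1.96% and 0.196% of all listed loops. In this sum a loop that spans several of the genes would count at each. The 2 shares cover loops of all lengths and were not matched to the lengths of the spanning loops. How many of all protein-coding genes lie within a listed loop, or within a gained one, was not counted. The gained ones passed over MTBP, TIMELESS, POLD1, RFC2 and RPA2.

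Other DNA replication genes were counted in the same way from 4 lists. Of 63 genes, 35 had a listed end, beside 49.6% of all protein-coding genes. Of the 35, 1 had a gained loop and 1 had lost loops, beside 12.7% and 1.85% of all genes with a listed end. The 19 origin licensing genes had 264 listed loops at 10 genes, with 0 gained and 0 lost. The 8 replication checkpoint genes (6 with listed loops) and the 10 of nucleotide supply (5 with listed loops) also had 0 of either class. Among 26 other fork factors, CHTF18, of an alternative clamp loader, had 6 lost loops of 174, and MMS22L, a fork repair gene, had its 1 listed loop gained. Whether the share of genes with a gained loop differs between these lists and the 38 genes was not tested.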

How the data were processed

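Hi-C libraries of 3 HCT116 samples, 1 per group, were analysed from the authors' deposited list of loops, which is labelled hg38 and pairs 2 positions with a class word in each row. Bowtie, hg19 and hg38 appear in the submitters' processing notes, and the loop caller, contact normalization and thresholds are not stated there or in the labels. Of 279669 rows, 49 had no class word (0 of these at the 38 genes) and 2 were repeats, which left 279618 loops. The compartment table's 6 columns of sample values match no sample label and were not used. Genes came from the RefSeq table of GRCh38.p14, and overlaps were computed with Python 3.11.15, numpy 2.4.6, pandas 2.3.3 and scipy 1.17.1. Overlap and joining steps were tested on simulated data. The genes and the comparison lists were chosen with earlier results of these data known. Every gene with a listed end is described. Partners were to be named at gained and lost loops and for the 5 genes with most loops, and after the values were seen frequent partners of the other genes were added. Alternatives were other end widths, other gene intervals, long loops alone, joined regions, and leaving out POLE or MTBP. No test was run, since each group has 1 library.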

Additional observations from a re-analysis of the deposited data

How the results depend on the processing

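Of 53 values under alternatives, 38 stayed within 1.5 times a count or inside the median's interval and 15 did not. Taking 2 kb on each side of the start site, which leaves out the 7 genes without a promoter entry, MTBP and RPA3 among them, gave 11 genes with a listed end, 121 loops with a median of 158.9 kb, 1 gene with 1 gained loop (GINS1), and 0 genes with 0 lost loops. Counted by joined region there were 46 regions with a median of 226.1 kb, 7 of them gained and 1 lost. Leaving out POLE left 0 genes and 0 lost loops by construction. Leaving out MTBP, chosen after seeing the data, left 7 gained loops. Loops of at least 100 kb alone had a median of 236.8 kb by construction. With loop ends of 10 kb, ends of 1 base or bodies widened by 5 kb, gained loops numbered 27, 22 and 27 at 4 genes. POLD4 had none of its 18 listed loops with ends of 1 base, and TIPIN had 2 listed loops with the widened body. No paired analysis was possible because the loop list gives no value per library. Without contact counts, what depth limits could not be assessed.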

Other observations

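The loops of a gene mostly ran one way. Among the 21 genes with listed loops, 11 carried only left ends, 5 only right ends and 5 both. In 8 genes all listed loops belonged to 1 joined region, and 7 of these genes had more than 1 loop. RPA3 and RFC5 each had a single far-end gene for all their loops, 46 at ICA1 and 33 at KSR2. The same held for DONSON, RFC2 and POLD1, which had only 4, 3 and 1 loops. The counts of this paragraph were not made over all genes with listed loops. No cause was tested.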
